A study of Mus musculus with 8 samples.

Results

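The effect of 17β-estradiol (E2) on ovarian follicular cells was compared between cells given an siRNA against Foxl2 and cells given a control siRNA. For each gene, the quantity examined was E2 minus vehicle with FOXL2 siRNA, minus E2 minus vehicle with control siRNA, on a log2 scale. It is called the difference of E2 effects below, and a positive value means that the E2 effect was more positive with FOXL2 siRNA. All 8 arrays of the series enter it, and it was computed for 15637 of the 24232 genes on the array. These were the genes whose scaled signal, before the log2 was taken, had a median of 10 or more. The cells, mostly granulosa cells, were grown from preantral follicles of 8-week-old female Swiss mice, and ovaries of 5 mice were pooled per replicate. All were transfected with 12 pmol of a pool of siRNAs, targeting Foxl2 or non-targeting, together with a pDsRed plasmid, and grown for a further 24 h in hormone-free medium with charcoal-treated serum. E2 at 100 nM or vehicle was present for the last 10 h before lysis, after 9 days of culture in all. The methods of the study count the 24 h up to lysis, whereas its results place 24 h of siRNA before the E2 treatment. The 4 labelled groups, of 2 arrays each numbered 1 and 2, are named control-vehicle, control-E2, siFOXL2-vehicle and siFOXL2-E2 after siRNA and treatment. The duplicates came from different animals, and whether arrays of different groups with the same number shared a pool of mice is not stated in the sources used here.

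FOXL2 is a forkhead transcription factor of granulosa cells, the somatic cells that surround the oocyte, and it holds them in their female identity. E2 is made by the same cells from androgens and acts on them through the nuclear receptors ESR1 and ESR2, of which granulosa cells express mainly ESR2. A bound receptor dimer contacts DNA at estrogen response elements, or reaches it through partner factors, and draws coactivators or corepressors to its target genes. The comparison asks which genes respond to E2 in one way when FOXL2 is present and in another when it has been depleted.

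Before any direction is given, 2 measurements on the labels must be set out. The first is the targeted gene. Foxl2 stood at 13.46 and 13.01 log2 scaled signal in control-vehicle arrays, 12.94 and 12.76 in control-E2 arrays, 13.41 and 13.39 in siFOXL2-vehicle arrays, and 13.12 and 12.96 in siFOXL2-E2 arrays. The arrays labelled FOXL2 siRNA were thus not lower in it, and changed by 0.17 under vehicle (limma adjusted p = 0.623) and by 0.19 under E2 treatment (limma adjusted p = 0.608). By qPCR, the study reports a marked decrease of each targeted mRNA, that of Foxl2 included, in follicular cells given its siRNA pools. Whether the Foxl2 probes of the array would show such a decrease was not tested. The second is the E2 treatment. The study describes Cbs, Angpt2, Tacc1 and Hsd11b2 as genes that E2 activates in control cells, whereas in the arrays labelled control siRNA all of them were lower with E2 than with vehicle. It describes Sox9 and Sox8 as repressed by E2, whereas both were higher with E2 in those arrays. Every sign below therefore rests on the deposited labels, and the groups are the arrays labelled so. Exchanging E2 and vehicle among the arrays labelled control siRNA would turn the difference of E2 effects into the sum of both labelled E2 effects, so the sum is given as well. Whether those labels are exchanged was not tested.

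The promoter sequences of 4 genes are shown as examples of the directions and motifs found. Cbs was called in the fit and in every fit that left out 1 array. Fbxl22, among the weakest calls, held both kinds of motif marked below, and Plekhg4 was the only gene called in the lower direction. Greb1, called with the replicate block alone, is a textbook estrogen receptor target. Neither Fbxl22 nor Plekhg4 was called when any array was left out. Each runs from 250 bases before to 50 bases after a transcription start in RefSeq, on build GRCm38.p6, 5′ to 3′ on the strand of the gene. Capitals mark GGTCA or its reverse complement (the half-site of the estrogen response element) and, on either strand, forkhead motifs, with GTAAACA as the first form searched, GTAAATA as the second, ATAAACA as the third and ATAAATA as the last.
Cbs (chr17:31637156-31637455, minus strand): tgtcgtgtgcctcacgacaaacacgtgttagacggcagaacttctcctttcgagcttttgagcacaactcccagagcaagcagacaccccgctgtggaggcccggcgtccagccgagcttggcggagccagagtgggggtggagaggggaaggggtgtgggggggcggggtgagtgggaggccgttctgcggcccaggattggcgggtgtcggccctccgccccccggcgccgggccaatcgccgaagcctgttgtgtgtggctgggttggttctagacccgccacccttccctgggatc
Fbxl22 (chr9:66514544-66514843, minus strand): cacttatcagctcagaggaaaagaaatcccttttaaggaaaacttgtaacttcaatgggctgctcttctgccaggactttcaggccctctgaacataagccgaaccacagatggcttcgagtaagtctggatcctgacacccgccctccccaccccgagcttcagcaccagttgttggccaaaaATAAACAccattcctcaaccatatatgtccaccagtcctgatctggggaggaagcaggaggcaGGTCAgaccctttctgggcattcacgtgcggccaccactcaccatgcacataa
Plekhg4 (chr8:105374977-105375276, plus strand): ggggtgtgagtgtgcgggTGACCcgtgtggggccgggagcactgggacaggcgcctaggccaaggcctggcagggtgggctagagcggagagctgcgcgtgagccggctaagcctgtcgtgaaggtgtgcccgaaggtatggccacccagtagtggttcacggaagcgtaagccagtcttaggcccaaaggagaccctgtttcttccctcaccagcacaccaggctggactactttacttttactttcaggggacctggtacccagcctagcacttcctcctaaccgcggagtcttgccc
Greb1 (chr12:16800837-16801136, minus strand), the first of 2 listed: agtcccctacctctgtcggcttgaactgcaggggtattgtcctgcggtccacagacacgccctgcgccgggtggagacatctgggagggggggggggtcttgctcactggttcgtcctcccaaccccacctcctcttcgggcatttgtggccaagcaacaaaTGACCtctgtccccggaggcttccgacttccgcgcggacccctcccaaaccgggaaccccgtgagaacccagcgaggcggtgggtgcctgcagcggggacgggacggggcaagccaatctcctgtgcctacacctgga

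The Cbs window held 0 matches of either kind. The windows of Fbxl22, Plekhg4 and Greb1 held 1 half-site each, and that of Fbxl22 also held 1 forkhead match. RefSeq listed 14670 windows for 11589 of the genes tested. The full estrogen response element, GGTCA followed after any 3 bases by its reverse complement, was in 3 of them (0.0204%) and in 0 of the 29 windows listed for 24 of the 38 genes called below. The half-site was in 38.5% of all windows, in 8 of those 29, in 40.6% of 212 windows of genes called in the higher direction with a replicate block, and in 37.9% of 87 windows of genes called in the lower direction with it. A forkhead motif was in 9.45% of all windows and in 4 of the 29, those of Fbxl22 and Slc25a28 and both windows of Btbd3. The AP-1 motif TGANTCA, through which estrogen receptors can act without binding DNA themselves, was in 5.49% of all windows and in 0 of the 29. These are matches of letters in short windows.

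In the limma fit of 4 group means, the E2 effect depended on the siRNA label for 38 of 15637 genes (0.243%) at an adjusted p below 0.05. The difference was positive for 37 of them (0.237% of genes tested) and negative for Plekhg4 alone (0.0064%). Without adjustment, 767 genes had p below 0.05 (4.91%), 476 with a positive difference (3.04%) and 291 with a negative one (1.86%). With the replicate number as a block, 332 genes were called (2.12%), 229 higher (1.46%) and 103 lower (0.659%), and all 38 were among them. Leaving out 1 array lowered the count to between 4 and 10. Cacna1a, Cbs, Cyp2s1 and Hs3st6 were called whichever array was left out, and 24 of the 38 genes were called in none of these 8 fits. The weakest calls, Slc13a3, Gpam, Tap2 and Fbxl22, shared an adjusted p of 0.0488, at differences from 0.98 to 5.44, and the first gene outside was Hunk, with 3.35 (SE 0.47) and 0.0502.

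The 38 genes shared one arrangement of the 4 groups. For all 37 with a positive difference, E2 arrays lay below vehicle arrays with control siRNA and above them with FOXL2 siRNA, in the pair numbered 1 and in the pair numbered 2. Over all genes tested this arrangement held for 7.52%. The reverse arrangement held for Plekhg4 and for 8.58% of all genes tested, and E2 effects of opposite sign for all 38 genes and for 50.4% of those tested. The lowest group mean was siFOXL2-vehicle for 21 of the 37 and control-E2 for 16. The highest was control-vehicle for 23 and siFOXL2-E2 for 14. The median E2 effect over the 37 was -1.25 with control siRNA and 0.96 with FOXL2 siRNA, so that the median difference, 2.23 on the log2 scale, was made of both. Since these genes were chosen by their difference, these values describe them and test nothing.

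**Figure D1:**
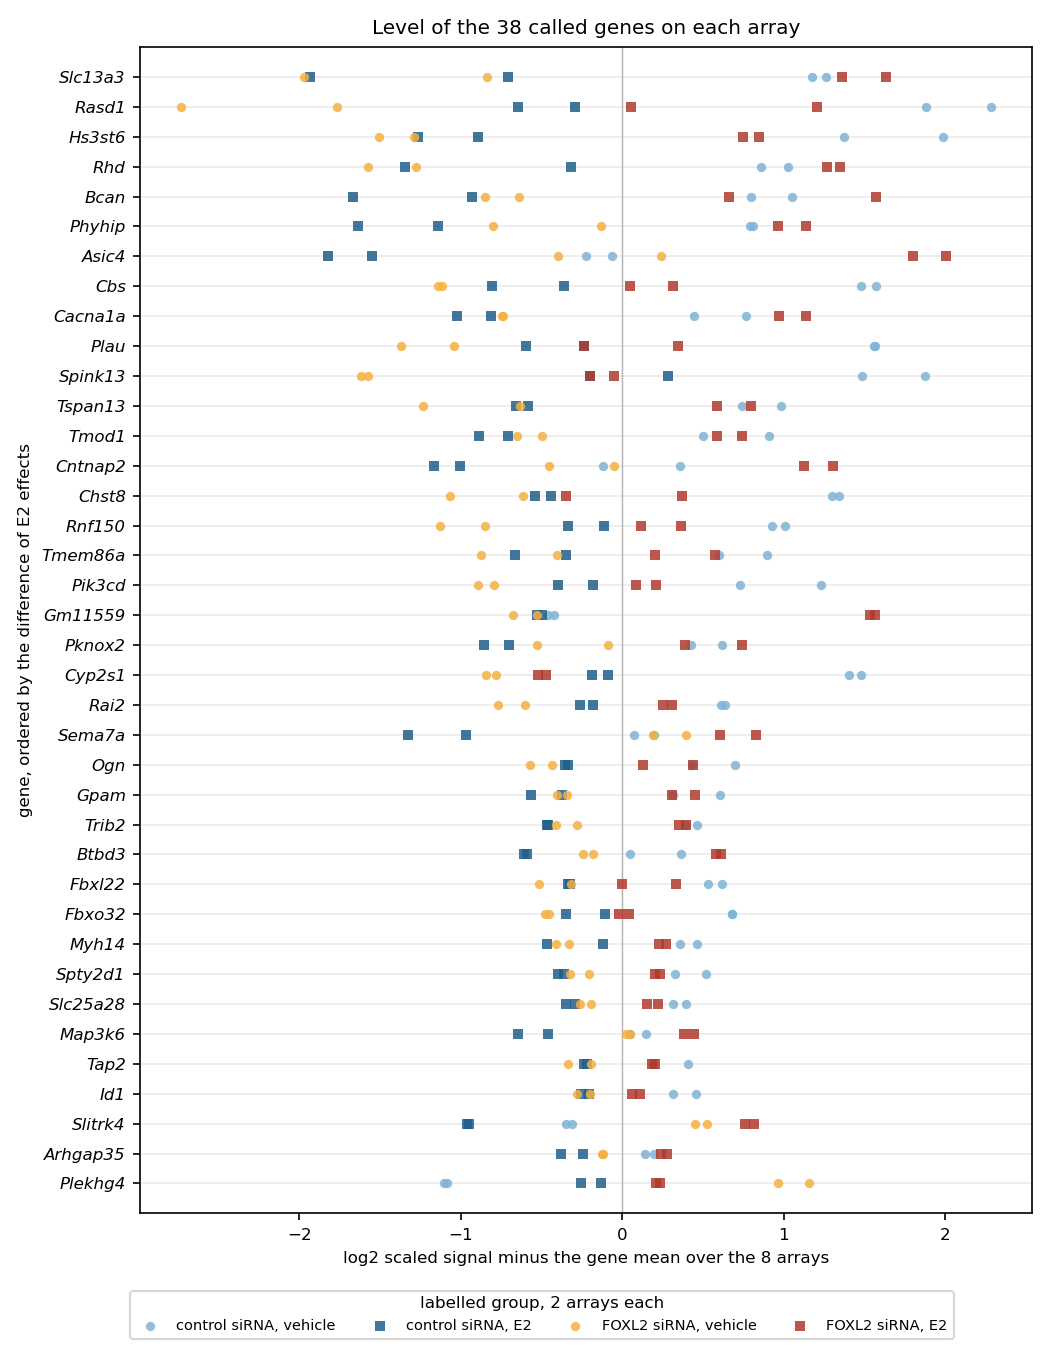
Level of each of the 38 called genes on each of the 8 arrays, as log2 scaled signal minus the mean of that gene over the 8 arrays (x axis), with genes ordered by the difference of E2 effects (y axis). Each group has 2 arrays. In 37 genes E2 lies to the left of vehicle with control siRNA (dark blue squares, light blue circles) and to the right of it with FOXL2 siRNA (red squares, orange circles) within each replicate number, and in Plekhg4 the reverse holds.

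How many of these genes passed the test for either E2 effect on its own depended on the block. With control siRNA, 3 genes were called (0.0192%), all lower with E2, and all of them were among the 38: Cbs, Hs3st6 and Cyp2s1. With FOXL2 siRNA, 2 were called (0.0128%), both higher with E2, namely Cacna1a and Gm11559. With the replicate block the counts were 182 (1.16%), among them 36 of the 38, and 96 (0.614%), among them 27 of the 38. The effects of the siRNA label itself were more numerous. With vehicle, 1026 genes (6.56%) were called, 459 lower and 567 higher in the arrays labelled FOXL2 siRNA (2.94% and 3.63%), and 28 of the 37 were among the lower ones and Slitrk4 among the higher ones. With E2, 686 genes (4.39%) were called, 352 of them higher (2.25%), of which 21 were among the 37, and 0 of the 37 were among the 334 called lower (2.14%). The difference of E2 effects is also the siRNA effect with E2 minus the siRNA effect with vehicle, so these counts share arrays with it and are not further evidence of it.

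**Figure D2:**
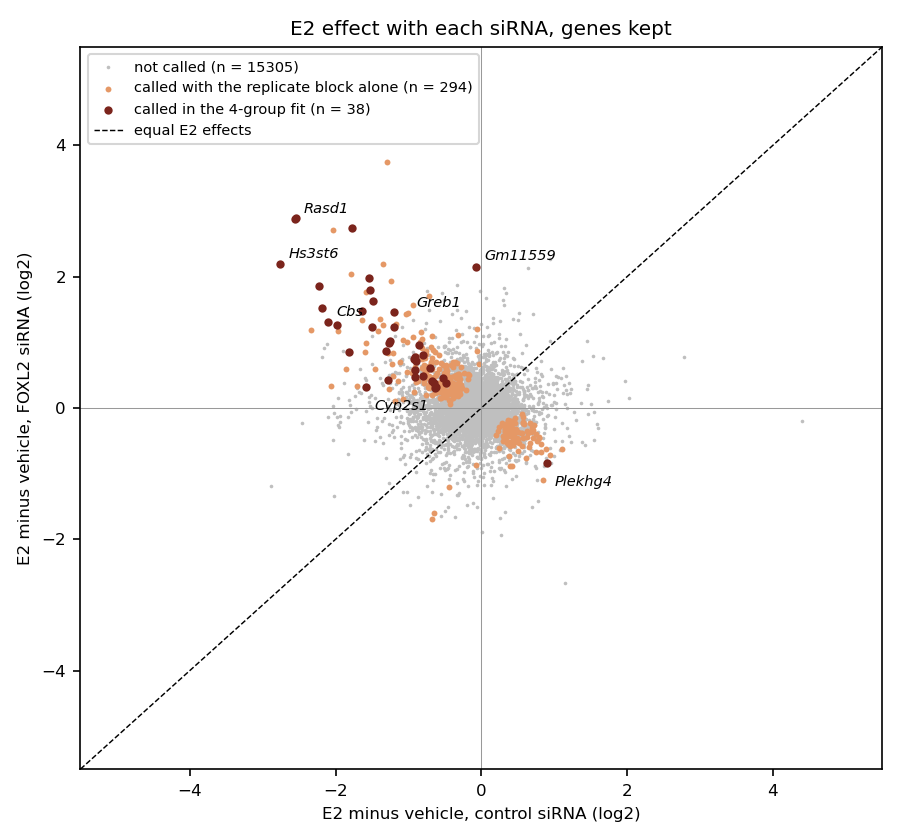
E2 minus vehicle in log2 units with control siRNA (x axis) and with FOXL2 siRNA (y axis) for the 15637 genes tested, 1 point per gene, each the mean over 2 replicate numbers. Dark points are the 38 genes called in the fit of 4 group means, orange points the 294 called with the replicate block alone, and the dashed line marks equal effects. All 38 lie in the quadrants where both E2 effects have opposite signs.

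The 38 genes were sorted by what their products are known to do, after the calls were known. Among them were 3 genes of sulfur metabolism and sulfation, 5 of solute transport and of lipid or xenobiotic metabolism, and 6 of kinase and small GTPase signalling. A further 5 encode proteases, their inhibitors, matrix proteoglycans or cell surface ligands, 4 are ion channels or neuronal membrane proteins, and 2 belong to the actin cytoskeleton. The last were 3 F-box and RING proteins, 5 regulators of transcription and chromatin, and 5 others. Of the 38, 32 were well above background on all 8 arrays and the other 6 on 4 to 7. The size of the difference in dim genes depended on how the background was treated. With normexp background correction and an offset of 50, it fell to 0.88 for Slc13a3, 1.77 for Rasd1, 0.55 for Rhd, 1.31 for Bcan, 0.80 for Phyhip and 1.29 for Asic4, and of these Asic4 alone stayed called. All 38 genes kept their direction.

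The sulfur genes were 3 enzymes. Hs3st6, a 3-O-sulfotransferase that finishes heparan sulfate chains, read 8.67 and 9.29 in control-vehicle arrays and 6.03 and 6.41 in control-E2 arrays. With FOXL2 siRNA its level was 5.79 and 6.01 with vehicle and 8.05 and 8.15 with E2. Within each siRNA the arrays of both treatments lay more than 2 log2 units apart, on opposite sides, and the difference was 4.95 (SE 0.32), limma adjusted p = 0.00301. Cbs encodes cystathionine β-synthase, which joins homocysteine and serine in the first step of transsulfuration. It was at 9.32 and 9.41 in control-vehicle arrays, 7.04 and 7.49 in control-E2 arrays, 6.73 and 6.70 in siFOXL2-vehicle arrays and 8.16 and 7.89 in siFOXL2-E2 arrays. No array of the control-vehicle group overlapped any other group. Its difference was 3.41 (SE 0.24), limma adjusted p = 0.00368, made of an E2 effect of -2.11 with control siRNA (adjusted p = 0.0141) and one of 1.31 with FOXL2 siRNA (adjusted p = 0.153). Chst8, which sulfates N-acetylgalactosamine on the glycans of hormones such as luteinizing hormone, went from 11.03 and 11.07 to 9.29 and 9.19 with E2 under control siRNA and from 9.11 and 8.66 to 10.10 and 9.38 under FOXL2 siRNA. Its difference of 2.66 (SE 0.33) came mostly from the control arrays, and both FOXL2 siRNA groups stayed below control-vehicle.

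Few other enzymes of these pathways were called. Of 19 transsulfuration, methionine cycle and glutathione genes tested, Cbs alone was called, and the replicate block added Cdo1, the cysteine dioxygenase that starts taurine synthesis, at 1.28 (SE 0.24 with the block). Cth, which acts directly after Cbs, had a difference of -0.60 (unadjusted p = 0.0571). The median of the list was -0.14, beside -0.02 for all genes tested. Of 17 heparan sulfate enzymes tested, Hs3st6 alone was called in either fit, and the median was -0.08. Its paralogs Hs3st1 and Hs3st3a1 had differences of -0.59 and 0.38, neither past an unadjusted p of 0.05, and the other Hs3st genes did not reach the signal minimum.

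Transporters and metabolic enzymes ran from dim to bright genes. Slc13a3, a sodium-coupled dicarboxylate transporter, read 4.79 and 4.70 in control-vehicle arrays, 1.59 and 2.81 in control-E2 arrays, 2.69 and 1.56 in siFOXL2-vehicle arrays and 4.89 and 5.16 in siFOXL2-E2 arrays. It was well above background on all arrays of the 2 high groups and on none of the 2 low groups, so its fitted difference rests on signals near the background. Against the lowest signal well above background on each array, it was at least 2.29-fold higher in vehicle than in E2 arrays with control siRNA and at least 2.49-fold higher in E2 than in vehicle arrays with FOXL2 siRNA. Slc13a5, the citrate transporter of the same family, had a difference of the opposite sign, -1.49 (SE 0.18 with the block), called with the block alone (adjusted p = 0.000968). It was far higher in the arrays labelled FOXL2 siRNA, at 11.39 and 10.97 with vehicle and 10.57 and 10.45 with E2, than in control arrays at 7.60 and 6.87 with vehicle and 8.20 and 7.91 with E2. The other 7 citrate and dicarboxylate genes tested were not called in either fit.

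Cyp2s1, a cytochrome P450 induced through the aryl hydrocarbon receptor, was measured with little spread between replicates. Its levels were 12.12 and 12.19 in control-vehicle arrays and 10.62 and 10.53 in control-E2 arrays, against 9.87 and 9.93 in siFOXL2-vehicle arrays and 10.24 and 10.19 in siFOXL2-E2 arrays. Nearly all of its difference, 1.90 (SE 0.12), came from control siRNA, where the E2 effect was -1.58 (limma adjusted p = 0.00197), while that with FOXL2 siRNA was 0.32 (adjusted p = 1). Tiparp and Cyp1b1, 2 other genes responsive to the aryl hydrocarbon receptor, were called with the block at 0.82 and 0.48, and the receptor gene itself, Ahr, had a difference of 0.02. Tmem86a, a lysoplasmalogenase, was among the brightest genes, at 15.71 and 15.41 in control-vehicle arrays, 14.46 and 14.14 in control-E2 arrays, 14.41 and 13.94 in siFOXL2-vehicle arrays and 15.39 and 15.01 in siFOXL2-E2 arrays. In it the E2 effects with both siRNAs were of like size and opposite sign, -1.25 and 1.03. Gpam, which starts glycerolipid synthesis in mitochondria, and Slc25a28, the mitochondrial iron carrier mitoferrin-2, had smaller differences of 1.68 (SE 0.23) and 1.09 (SE 0.12).

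Among the signalling genes, Rasd1 had the largest difference. Rasd1 encodes a Ras-like GTPase first known as a glucocorticoid-induced gene. It stood at 7.37 and 6.97 in control-vehicle arrays, 4.79 and 4.44 in control-E2 arrays, 3.32 and 2.36 in siFOXL2-vehicle arrays and 6.29 and 5.14 in siFOXL2-E2 arrays. It was not well above background on either siFOXL2-vehicle array. It was at least 4.03-fold higher with E2 than with vehicle under FOXL2 siRNA, and the difference was 5.43 (SE 0.64), limma adjusted p = 0.0333. Of the other 12 Ras-like and RGS genes tested none was called, and the block added Rgs3 at 1.08, Rgs4 at -1.03 and Rgs11 at -0.72, which are GTPase activators for G proteins. Pik3cd, the p110δ catalytic subunit of phosphoinositide 3-kinase, was at 9.00 and 9.50 in control-vehicle arrays and 7.87 and 8.09 in control-E2 arrays. With FOXL2 siRNA it was at 7.47 and 7.38 with vehicle and 8.36 and 8.48 with E2, and its difference was 2.26 (SE 0.25). The pseudokinase gene Trib2, the ASK family stress kinase gene Map3k6 and Arhgap35, a GTPase-activating protein, had differences of 1.61, 1.03 and 0.86. Trib2, Map3k6 and Arhgap35 all belonged to the genes whose lowest group was control-E2.

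Plekhg4, an exchange factor that activates small GTPases, ran the other way. Its levels were 7.14 and 7.16 in control-vehicle arrays, 7.98 and 8.11 in control-E2 arrays, 9.39 and 9.20 in siFOXL2-vehicle arrays and 8.45 and 8.48 in siFOXL2-E2 arrays. Here control-vehicle was the lowest group and siFOXL2-vehicle the highest, and none of the 4 groups overlapped. The difference was -1.74 (SE 0.17), limma adjusted p = 0.0147, with -1.79 in the arrays numbered 1 and -1.68 in those numbered 2. It was not called in any fit that left out 1 array, where it ranged from -1.83 to -1.64 (adjusted p up to 0.102). Of the other 25 exchange factors of this kind tested, Net1 was called with the block, at 1.05. The paralogs Plekhg2, Plekhg3, Plekhg5 and Plekhg6 had differences of -0.32, -0.20, -0.22 and 1.51, none past an unadjusted p of 0.05.

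Among proteases and matrix genes, Plau encodes urokinase, the plasminogen activator of migrating cells. It read 9.90 and 9.91 in control-vehicle arrays, 7.75 and 8.10 in control-E2 arrays, 7.30 and 6.97 in siFOXL2-vehicle arrays and 8.68 and 8.11 in siFOXL2-E2 arrays, a difference of 3.24 (SE 0.31). Plat, the tissue-type plasminogen activator, moved the opposite way with the block, at -0.64, as did the metalloproteinase Mmp11 at -0.56. Plaur, the urokinase receptor, had almost no difference (unadjusted p = 1), and the 20 proteases and inhibitors tested had a median of -0.26. Spink13, a Kazal-type protease inhibitor, was at 7.83 and 8.21 in control-vehicle arrays and 4.77 and 4.72 in siFOXL2-vehicle arrays, the 2 extremes, and lay between them at 6.14 and 6.62 in control-E2 arrays and 6.29 and 6.14 in siFOXL2-E2 arrays. Its difference was 3.11 (SE 0.31).

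Of the matrix proteoglycans, Bcan (brevican) read 5.30 and 5.55 in control-vehicle arrays, 3.58 and 2.84 in control-E2 arrays, 3.65 and 3.86 in siFOXL2-vehicle arrays and 6.08 and 5.17 in siFOXL2-E2 arrays. It was dim, well above background on 7 of 8 arrays, with a difference of 4.09 (SE 0.56). Ogn, osteoglycin, was brighter and changed less, at 1.69 (SE 0.22). Sema7a, a membrane-anchored semaphorin, differed from most of the 37 in that siFOXL2-vehicle, at 11.82 and 12.02, was no lower than control-vehicle, at 11.82 and 11.70. Its E2 arrays read 10.30 and 10.66 with control siRNA and 12.23 and 12.45 with FOXL2 siRNA, and the difference was 1.70 (SE 0.20). In the list of 32 guidance genes tested, Sema7a alone was called. The block added Slit3 at 0.86 and Plxna2 at 0.70, and with the opposite sign Sema3f at -0.90 and Efnb1 at -0.77. Of the Plxna2 probes, both well above background on all 8 arrays, the brighter gave 0.83 and the other -0.00056.

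The channel and neuronal membrane genes were led by Cacna1a, the pore subunit of P/Q-type calcium channels. It was at 8.26 and 7.94 in control-vehicle arrays, 6.47 and 6.68 in control-E2 arrays, 6.75 and 6.76 in siFOXL2-vehicle arrays and 8.63 and 8.46 in siFOXL2-E2 arrays. The difference of 3.32 (SE 0.22) had a limma adjusted p of 0.00301, and E2 raised the gene with FOXL2 siRNA on its own, by 1.80 (adjusted p = 0.0327). Of 8 voltage-gated calcium channel genes above the signal minimum it alone was called, and the accessory subunit Cacna2d3 had a difference of 1.47 (unadjusted p = 0.0255). Asic4, of the acid-sensing channel family, read 4.87 and 4.70 in control-vehicle arrays, 3.11 and 3.38 in control-E2 arrays, 4.53 and 5.17 in siFOXL2-vehicle arrays and 6.73 and 6.93 in siFOXL2-E2 arrays. Only its E2 groups stood apart, low with control siRNA and high with FOXL2 siRNA, and its difference was 3.52 (SE 0.40). Cntnap2, a neurexin relative, had the same shape, with 5.70 and 5.86 in control-E2 arrays, 7.99 and 8.17 in siFOXL2-E2 arrays and a difference of 2.67 (SE 0.30). Slitrk4, a leucine-rich synaptic adhesion protein, was called at 0.93 (SE 0.11), and the block added the potassium channel Kcnk1 at 1.61 and the protocadherin Pcdh8 at 2.42. Pcdh8 was dim, well above background on 5 of 8 arrays, on neither siFOXL2-vehicle array and on 1 siFOXL2-E2 array. The E2 effect on Pcdh8 with FOXL2 siRNA therefore rests on signals near the background, and no bound is given for it.

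Tmod1, which caps the slow-growing ends of actin filaments, read 6.95 and 7.36 in control-vehicle arrays, 5.56 and 5.74 in control-E2 arrays, 5.80 and 5.95 in siFOXL2-vehicle arrays and 7.19 and 7.04 in siFOXL2-E2 arrays. Its difference was 2.74 (SE 0.27), against 1.32 (SE 0.18) for Myh14, a nonmuscle myosin heavy chain. The F-box proteins Fbxo32 and Fbxl22, substrate adaptors of ubiquitin ligases, and the RING protein Rnf150 had differences of 1.38, 1.49 and 2.42.

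Regulators of transcription had small to middling differences. Pknox2, a TALE homeobox factor, was at 10.89 and 10.70 in control-vehicle arrays, 9.57 and 9.41 in control-E2 arrays, 10.18 and 9.74 in siFOXL2-vehicle arrays and 11.01 and 10.66 in siFOXL2-E2 arrays. The difference was 2.17 (SE 0.25), the largest of the 5. Id1, a target of BMP signalling that blocks basic helix-loop-helix factors, was at 11.04 and 10.90 in control-vehicle arrays and between 10.30 and 10.70 on the other 6 arrays, with a difference of 0.94 (SE 0.13). Its relative Id3 was called with the block at 0.58. Of the 36 genes of BMP, activin and TGF-β signalling tested, Id1 alone was called, and the list's median was -0.049. Rai2, Btbd3 and the histone chaperone gene Spty2d1 had differences of 1.81, 1.61 and 1.28.

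Of the 5 remaining genes, Tspan13, a tetraspanin, read 9.88 and 10.12 in control-vehicle arrays, 8.48 and 8.55 in control-E2 arrays, 8.50 and 7.91 in siFOXL2-vehicle arrays and 9.93 and 9.72 in siFOXL2-E2 arrays, a difference of 3.11 (SE 0.28). Tap2, a subunit of the transporter that loads peptides for antigen presentation, was bright on all arrays and differed by 0.98 (SE 0.14). Rhd, the red cell Rh antigen, was well above background in the 2 high groups alone and dim throughout, at 4.30 and 4.47 in control-vehicle arrays and 4.80 and 4.71 in siFOXL2-E2 arrays. With FOXL2 siRNA E2 was at least 2.07-fold above vehicle, and vehicle was at least 1.78-fold above E2 with control siRNA. Of the other red cell markers, Hba-a1 and Hbb-bs were well above background on 1 array each and Alas2 on 2, and Alas2 had differences of 2.20 in the arrays numbered 1 and -1.80 in those numbered 2. The part of red cells in the Rhd values was not tested. Phyhip, named for its binding to a peroxisomal hydroxylase, was well above background on 5 arrays and on neither control-E2 array, where vehicle was at least 3.48-fold higher. Gm11559, a predicted gene, was the exception among the 37. It was at 6.26 and 6.30 in control-vehicle arrays, 6.19 and 6.22 in control-E2 arrays and 6.19 and 6.04 in siFOXL2-vehicle arrays, and only siFOXL2-E2, at 8.25 and 8.28, stood apart. The E2 effect was -0.071 with control siRNA and 2.15 with FOXL2 siRNA (adjusted p = 0.00765).

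Among the 38 genes, 12 had more than 1 probe well above background on at least 4 arrays, and in all 12 the probes gave differences of the same sign.

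**Figure D3:**
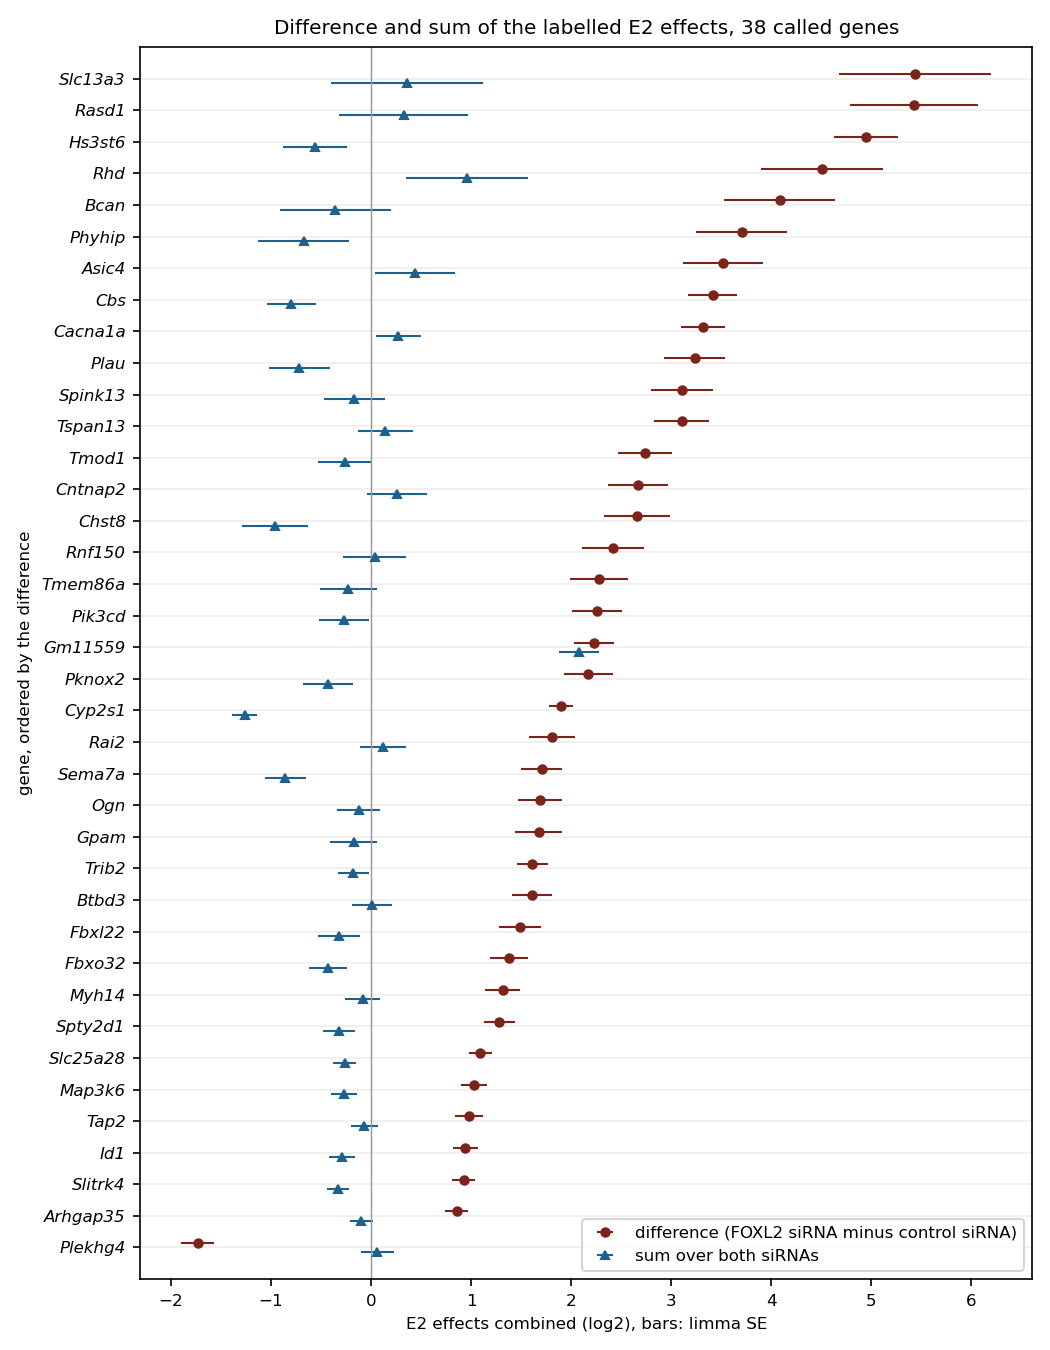
Difference of the labelled E2 effects (dark red circles) and their sum over both siRNAs (blue triangles) for the 38 called genes, in log2 units on the x axis, with limma SEs as bars. The sums lie between -1.26 for Cyp2s1 and 2.08 for Gm11559. The genes were chosen by their difference, and the sums did not enter that choice.

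The sum of both labelled E2 effects passed the adjusted threshold for 0 genes in limma, with 360 genes at an unadjusted p below 0.05, and for 8 genes with the replicate block (0.0512%). For the 38 genes its median size was 0.28 against 2.20 for the difference. These genes were chosen by their difference, and neither the sum nor the signs of the E2 effects entered that choice. The sum was smaller in size than the difference in all 38, against 50.4% of all genes tested. Whether exchanged labels account for this was not tested. The sum was furthest from 0 in Gm11559, at 2.08 (SE 0.20, adjusted p = 0.0681), and in Cyp2s1, at -1.26 (SE 0.12, adjusted p = 0.0681). Both were among the 8 called with the block. In Cbs the sum was -0.80, in Hs3st6 -0.56 and in Chst8 -0.96, none of them called in either fit.

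The difference was also taken within each replicate number. It had the same sign in both numbers for 54.9% of all genes. Over the genes of the array, none of them a replicate of another, the values of both numbers correlated at 0.30 (Pearson) and 0.19 (Spearman). A difference of at least 1 with the same sign in both numbers was found for 258 genes (1.65%), 200 of them positive (1.28%) and 58 negative (0.371%), and 33 of the 38 were among them. Hs3st6, for example, had 4.89 and 5.01, and Cbs 3.71 and 3.12. Over the 38 the numbers differed by a median of 0.20 and at most by 0.87. The calls themselves require a small spread between numbers, so the agreement of the 38 is a description.

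**Figure D4:**
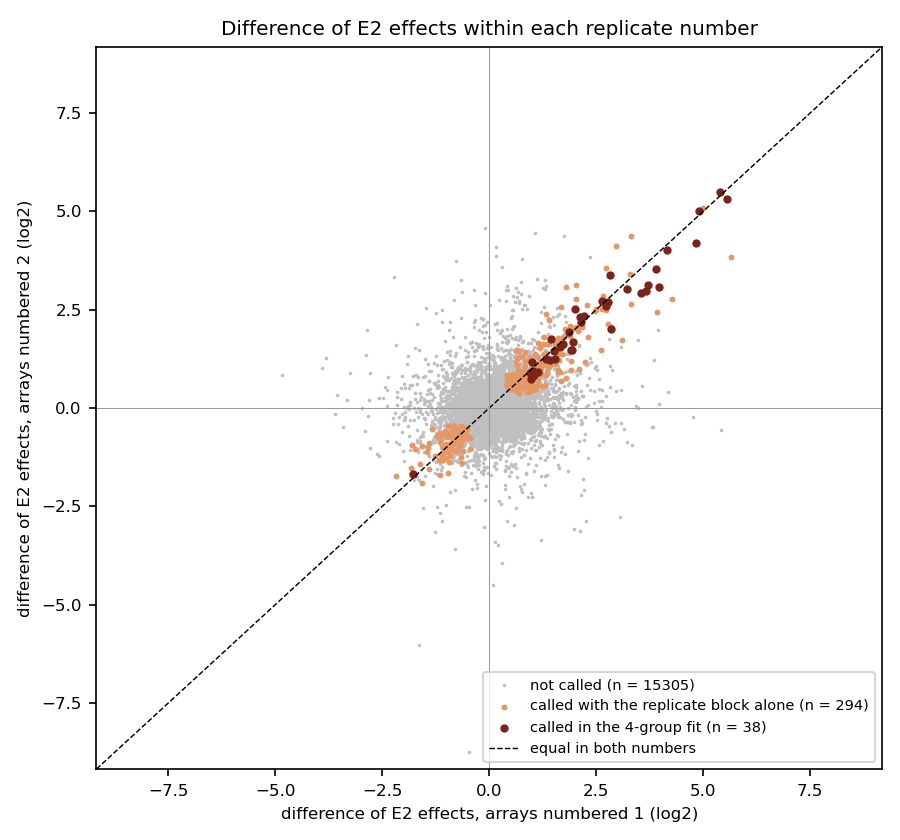
Difference of E2 effects in log2 units in the arrays numbered 1 (x axis) and in those numbered 2 (y axis) for the 15637 genes tested, 1 point per gene. Dark points are the 38 genes called in the fit of 4 group means and orange points the 294 called with the replicate block alone, and they lie near the dashed line of equal values, between -1.74 and 5.44 in the mean of both numbers for the dark points.

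The 294 genes called with the replicate block alone had differences of both signs. Those with the largest positive differences, well above background on at least 4 arrays, were Ednra, Hsd11b2, Hunk, Angpt2, Car14, Fam163a, Luzp4, Foxd4, Pcp4l1 and Nipal1, from 3.53 down to 2.57. Ednra, a receptor of the vasoconstrictor endothelin, read 7.72 and 6.81 in control-vehicle arrays, 6.39 and 5.44 in control-E2 arrays, 5.49 and 3.48 in siFOXL2-vehicle arrays and 7.13 and 6.22 in siFOXL2-E2 arrays. Its arrays numbered 2 were lower than those numbered 1 in every group, and its adjusted p was 0.478 without the block and 0.000273 with it. Car14, a membrane carbonic anhydrase, was likewise lower in the arrays numbered 2, with 8.78 and 8.28 in control-vehicle arrays, 7.12 and 6.02 in control-E2 arrays, 6.16 and 4.73 in siFOXL2-vehicle arrays and 7.22 and 6.03 in siFOXL2-E2 arrays. Hunk, an AMPK-related kinase, was at 3.35 (SE 0.47), just outside the threshold without the block.

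The largest negative differences by the same rule were those of Unc93a, Acer1, Cxcl5, Insc, Slc13a5, Slc12a8, Nrcam, Tmem178, Cd28 and Megf10, from -1.94 to -1.28. Acer1, an alkaline ceramidase, read 4.42 and 4.52 in control-vehicle arrays, 5.40 and 5.77 in control-E2 arrays, 7.95 and 8.38 in siFOXL2-vehicle arrays and 7.37 and 7.72 in siFOXL2-E2 arrays. It was higher in all 4 arrays labelled FOXL2 siRNA than in any labelled control siRNA, and in it the E2 effect was 1.11 with control siRNA and -0.62 with FOXL2 siRNA. Cxcl5, a neutrophil chemokine, was at 9.01 and 8.27 in control-vehicle arrays, 10.01 and 9.16 in control-E2 arrays, 8.70 and 7.38 in siFOXL2-vehicle arrays and 7.88 and 6.76 in siFOXL2-E2 arrays, and its adjusted p was 1 without the block and 0.000684 with it. Acer1 was the only one called, with the block, of 19 ceramide and sphingosine phosphate genes tested. Without the block, none of these 10 genes had an adjusted p below 0.153.

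The genes that the study names as activated by E2 were chosen by it on these arrays, so their values are no independent evidence. All 4 had positive differences, with a median of 3.30. Besides Cbs, which was called in both fits, Angpt2, an antagonist of the TIE2 receptor in vessel remodelling, differed by 3.18 (SE 0.60). It read 7.65 and 7.52 in control-vehicle arrays, 6.51 and 6.17 in control-E2 arrays, 3.67 and 3.87 in siFOXL2-vehicle arrays, where it was not well above background, and 6.44 and 4.97 in siFOXL2-E2 arrays. With FOXL2 siRNA its group mean was at least 3.67-fold higher with E2 than with vehicle. The log2 E2 effect there was 2.77 in the arrays numbered 1 and 1.10 in those numbered 2. Of 11 angiopoietin and VEGF family genes tested, Angpt2 alone was called with the block. Hsd11b2, which inactivates glucocorticoids, differed by 3.52 (SE 0.75). It read 2.71 and 4.02 in siFOXL2-vehicle arrays, and was well above background on 1 of these. Its E2 effect with FOXL2 siRNA was 2.32 in the arrays numbered 1 and 0.053 in those numbered 2. With control siRNA it was -1.94 and -2.73. Tacc1, a centrosomal coiled-coil protein, differed by 1.58 (SE 0.29). The limma adjusted p of these 3 lay between 0.153 and 0.254, and with the block between 0.0024 and 0.0139.

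A wider set of 22 textbook estrogen targets was listed as well. Of the 19 tested, none was called in the fit of 4 group means, 3 had a positive difference at an unadjusted p below 0.05 and 1 a negative one (3.04% and 1.86% of all genes), and the median was -0.071. Greb1, an early-response coregulator of estrogen receptors, read 14.74 and 14.60 in control-vehicle arrays, 13.75 and 13.58 in control-E2 arrays, 13.06 and 12.25 in siFOXL2-vehicle arrays and 14.35 and 13.86 in siFOXL2-E2 arrays. It was among the brightest genes on every array, with E2 below vehicle with control siRNA and above it with FOXL2 siRNA in both numbers. The difference was 2.45 (SE 0.36), with an adjusted p of 0.0618, and 3.24e-05 with the block. Gdf15, a stress-induced cytokine, was called with the block in the other direction at -0.75. Ccnd1, Myc, Igf1 and Cxcl12 had differences of -0.51, -0.48, -0.35 and -0.46, none past an unadjusted p of 0.05, and Pgr, Pdzk1 and Ltf did not reach the signal minimum.

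Neither the receptors nor their coregulators were among the genes called. Esr2 was at 11.91 and 11.65 in control-vehicle arrays, 11.71 and 11.70 in control-E2 arrays, 11.27 and 11.37 in siFOXL2-vehicle arrays and 11.41 and 11.08 in siFOXL2-E2 arrays, and its difference was -0.00036 (SE 0.19), with a sign that changed between scalings. Esr1 was dim, between 4.03 and 4.31 on all 8 arrays, and differed by -0.20 (SE 0.38). Foxl2 itself differed by 0.022 (SE 0.21). Nr5a1, the orphan receptor that drives steroid enzyme genes, differed by 0.49 (SE 0.13), with an adjusted p of 0.0576 with the block. Of 12 estrogen receptor and coregulator genes tested, 0 were called in either fit and 0 had an unadjusted p below 0.05 in limma. Over all genes tested these shares were 0.243% without the block, 2.12% with it and 4.91% unadjusted, so 0 among 12 genes says little.

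Genes that the study places under FOXL2 were described in the same way. Of its 19 FOXL2-activated genes, the block called Hsd11b2, Gja1 (connexin 43, the main gap junction protein of granulosa cells) and Foxo1 in the positive direction and Rgs4 in the negative one, where it called 1.46% and 0.659% of all genes. Gja1 read 10.22 and 10.29 in control-vehicle arrays, 9.98 and 9.38 in control-E2 arrays, 8.06 and 7.47 in siFOXL2-vehicle arrays and 9.03 and 8.12 in siFOXL2-E2 arrays. It was lower in every array labelled FOXL2 siRNA than in any labelled control siRNA, and its difference was 1.39 (SE 0.47). Of its 5 FOXL2-repressed genes, which also mark Sertoli cells of the testis in part, Sox9, Sox8 and Dhh had negative differences called with the block. Sox9, the factor that drives Sertoli cell fate, was at 5.66 and 5.87 in control-vehicle arrays, 6.41 and 6.70 in control-E2 arrays, 8.39 and 8.46 in siFOXL2-vehicle arrays and 7.71 and 8.27 in siFOXL2-E2 arrays. The siRNA label separated its arrays fully, by 2.66 under vehicle (adjusted p = 0.00113) and by 1.44 under E2 treatment (adjusted p = 0.0112). The gap was smaller with E2, a difference of -1.22 (SE 0.30), and for Sox8 and the ligand gene Dhh the differences were -1.01 (SE 0.26) and -0.60 (SE 0.20). The limma adjusted p of these 3 was 0.369, 0.418 and 0.762 without the block, so none was called there.

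Of 16 steroid synthesis and metabolism genes tested, 11 had a positive difference, against 7107 of all 15637 genes, and none was called in the fit of 4 group means. With the block, besides Hsd11b2, Cyp17a1, which makes androgens in theca cells, had a positive difference of 0.84 (SE 0.17 with the block) and Star, which carries cholesterol into mitochondria, a negative one of -0.70 (SE 0.14 with the block). The list's median was 0.11. Of 26 cholesterol and fatty acid synthesis genes, 18 had a positive difference, and the block called Sc5d, a late enzyme of cholesterol synthesis, at 0.98 (SE 0.13 with the block). Of 25 immediate early genes, the block called Dusp1, a MAP kinase phosphatase, at -0.97 (SE 0.13 with the block), while the median was -0.071.

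Members of other pathways were called with the block alone. In the positive direction these were Hbegf among EGF-like ligands (1.18), Irs1 in the insulin-like growth factor system (0.74), Pfkfb3 in glycolysis (0.77), Tnfaip3 among NF-κB genes (0.95), Psmb9 among interferon genes (0.69), Ppp1r15a in the stress response (0.56) and Col6a1 among collagens (0.82). In the negative direction they were Adm in the hypoxia response (-0.93), Sfrp2 and Wnt10b in WNT signalling (-0.80 and -0.72), Tgfb3 among TGF-β ligands (-0.78) and the collagen gene Col3a1 (-0.59). Of 28 cell cycle genes, 18 gonadotropin and cAMP genes, 17 Notch genes and 17 other nuclear receptors, none was called in either fit. Over all genes tested, 0.243% were called without the block and 2.12% with it, so the lack of calls in lists of this size says little. Over the 33 pathway lists the medians lay between -0.60 for the FOXL2-repressed genes and 3.30 for the E2 genes of the study, and over the lists that the study did not choose between -0.26 and 0.31.

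**Figure D5:**
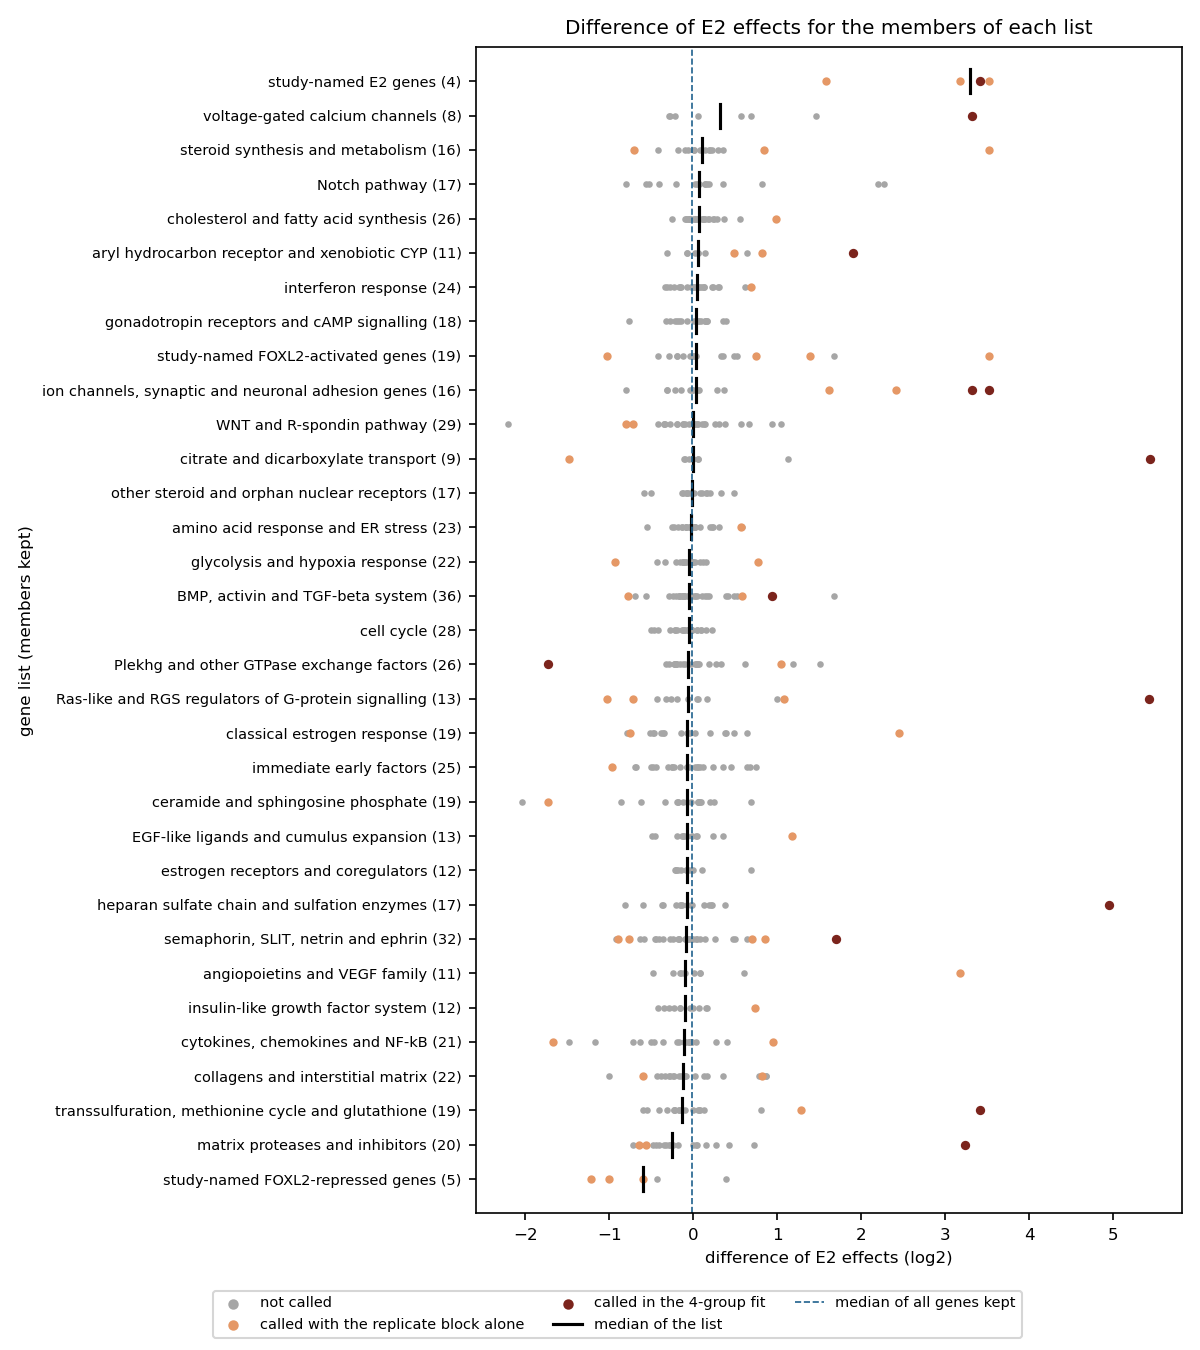
Difference of E2 effects in log2 units (x axis) for each tested member of 33 gene lists (y axis, number of members tested in parentheses), 1 point per gene. Dark red points were called in the fit of 4 group means, orange points with the replicate block alone and grey points in neither, black bars are list medians and the dashed line is the median of all genes, -0.02. Called members such as Slc13a3 at 5.44, Rasd1 at 5.43 and Hs3st6 at 4.95 lie far from the medians of their own lists.

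Granulosa cell markers were abundant in all groups. Of 14, 11 were well above background on all 8 arrays, while Fshr and Amh were not on any. Their summed scaled signal ran from 161243 to 168604 in the arrays labelled control siRNA and from 189574 to 209210 in those labelled FOXL2 siRNA. The difference of E2 effects in this sum was -0.035 in the arrays numbered 1 and -0.051 in those numbered 2. Theca and stromal markers, 6 of 11 well above background throughout, gave 0.27 and 0.24. Their summed signal was highest in control-vehicle arrays, 130155 to 133720, and lowest with FOXL2 siRNA, 74669 to 91283. The brightest members weigh most in such a sum, and not all members followed it. Star and Cyp17a1 had log2 means of 10.77 and 11.24 in control-vehicle arrays and 11.59 and 11.44 in siFOXL2-vehicle arrays. Of 12 oocyte markers, 9 including Zp1, Zp2 and Zp3 were not well above background on any array. Lyz2, Ptprc and Tyrobp of the 9 leukocyte markers and Cdh5, Tek, Emcn and Cldn5 of the 8 endothelial ones were not either. The summed differences of the leukocyte list were 0.36 and -0.36 and those of the endothelial list 0.071 and -0.089. The Sertoli list, 7 of 9 well above background throughout, gave 0.073 and -0.60. The part of other cell types in the differences above was not tested. In bulk cells, fewer cells of a type and less RNA per cell cannot be told apart.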

How the data were processed

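RNA of 8 cultures (50 ng each) was measured on 1-colour Agilent mouse arrays, all on 1 slide in 1 scan. The authors deposited scanner output of Agilent Feature Extraction, from which the processed signal intensity was used, and a table of normalized log2 values, used as an alternative only. Control spots and 42 probes that were not uniform were left out. Intensities were scaled by the 75th percentile of each array (275 to 367 before scaling), and 51.4% to 55.6% of probes were well above background. Probes of a gene were averaged, and 15637 genes (64.5%) whose median reached 10 on this linear scale were kept. The log2 was taken after that. Replicates of a group correlated at 0.989 to 0.992 and held 0 identical values.

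Group means were fitted with limma 3.58.1 in R 4.3.3 (eBayes with an intensity trend, 4 residual degrees of freedom, two-sided, Benjamini-Hochberg over all genes kept, threshold 0.05), and the code was tested on simulated data. All comparisons share arrays. With 2 arrays per group, their number limits the precision. Same-numbered arrays deviated together (correlation 0.327 to 0.445 over 6 pairs of groups), so counts with the replicate number as a block are printed as well. The number coincides with the row of the slide on 8 of 8 arrays, and each group has its own position in the row, so pool and row, or group and position, cannot be told apart.

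Where neither array of a group was well above background, its signal gives only a bound, taken against the lowest signal well above background on each array. Alternatives were the block, normexp correction (offset 50), quantile normalization, no filter, probes well above background on at least 4 arrays, the brightest probe per gene, no trend, the authors' log2 table, and leaving out each array.

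Named were all genes called for the difference, up to 10 further genes per direction with the largest differences called with the block (well above background on at least 4 arrays, same sign in both numbers), genes the study names, the receptors, called members of 33 lists and paralogs of called genes. Cth, Ahr, Plaur, Ccnd1, Myc, Igf1, Cxcl12, Pgr, Pdzk1, Ltf and the predicted gene Gm11559 were named after their values were seen. The comparison, the genes and the lists were chosen with earlier results of these data known. A few genes are not reported here.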

Additional observations from a re-analysis of the deposited data

Results flagged for a closer look

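For 38 genes the effect of E2 differed between the 2 siRNA labels in the limma test of the difference itself, and each is given here with that difference in log2 units. Differences above 3 were found for Slc13a3 5.44, Rasd1 5.43, Hs3st6 4.95, Rhd 4.51, Bcan 4.09, Phyhip 3.71, Asic4 3.52, Cbs 3.41, Cacna1a 3.32, Plau 3.24, Spink13 3.11 and Tspan13 3.11. Between 2 and 3 lay Tmod1 2.74, Cntnap2 2.67, Chst8 2.66, Rnf150 2.42, Tmem86a 2.28, Pik3cd 2.26, Gm11559 2.23 and Pknox2 2.17. Between 1 and 2 lay Cyp2s1 1.90, Rai2 1.81, Sema7a 1.70, Ogn 1.69, Gpam 1.68, Trib2 1.61, Btbd3 1.61, Fbxl22 1.49, Fbxo32 1.38, Myh14 1.32, Spty2d1 1.28, Slc25a28 1.09 and Map3k6 1.03. Below 1 lay Tap2 0.98, Id1 0.94, Slitrk4 0.93 and Arhgap35 0.86. The difference was negative for Plekhg4, at -1.74.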

How the results depend on the processing

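The number of genes whose E2 effect depended on the siRNA label, 38, was 31 with normexp, 35 with quantile normalization, 40 with the detection filter, 29 with the brightest probe and 39 with the authors' table. It moved to 332 with the replicate block, 9 with no filter on low values and 15 with no intensity trend. Of the 38 genes, 28 were still called with normexp, 32 with quantile normalization, 9 with no filter, 38 with the detection filter, 28 with the brightest probe, 14 with no trend and 38 with the authors' table, and all 38 kept their direction under every alternative. Leaving out 1 array gave 4 (without control siRNA with vehicle replicate 2) to 10 genes, a fit in which the lone array of a group is assumed to vary like the others. With the replicate block, the E2 effect was called for 182 genes with control siRNA and 96 with FOXL2 siRNA, the siRNA effect for 2928 with vehicle and 2329 with E2, and the sum of E2 effects for 8. Leaving out 1 array gave 0 to 5, 0 to 4, 309 to 918, 130 to 629 and 0 to 1 genes for these in turn. Genes with a difference of at least 1 in both replicate numbers fell from 258 to 62 with normexp, which compresses dim signals. Among genes not called, the sign turned for Foxl2 with normexp (-0.051) and for Esr2 with normexp (0.029), quantile normalization (0.030) and the authors' table (0.0057). Leaving out 1 array gave -0.20 to 0.25 for Foxl2 and -0.16 to 0.16 for Esr2. Apart from those named, the cause of these shifts was not tested. Dim signals limit the sizes: 6 of the 38 genes were not well above background on every array.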

Other observations

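The sum of both labelled E2 effects, which would be the difference if E2 and vehicle were exchanged among the arrays labelled control siRNA, was called with the replicate block for 8 genes. Gm11559 had a positive sum and the other 7 a negative one. Capn11, a calpain protease, had an E2 effect of -0.68 with control siRNA and -1.70 with FOXL2 siRNA, and its sum was -2.37. Krtap19-5, a keratin-associated protein, had a sum of -2.24, and the Riken gene 4933405E24Rik one of -1.65. Rps21, a protein of the small ribosomal subunit, was lower with E2 on all 4 pairs, with E2 effects of -0.22 and -0.67 and a sum of -0.89. Cyp2s1 was at -1.26, and 2 genes without a symbol were at -1.48 and -0.93. In limma without the block none of the 8 was called, with adjusted p from 0.068 upwards.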
